A study of Homo sapiens with 17 samples.

Results

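The genes CDKN2A, CDKN2B, MTAP, KLHL9, HACD4 and FOCAD are neighbours on the short arm of human chromosome 9, in band 9p21. All probes that the array annotation assigns to these 6 genes were taken, 10 probes, on an array that covered 20046 genes with a single symbol. The genes were selected on their RNA level in these cell lines, so their level pattern across lines is described without a test. Only the response to D9 was tested, and the genes and tests were chosen with earlier results of these data known. D9 is an analog of 3-deazaneplanocin A (DZNep), a compound that blocks S-adenosylhomocysteine hydrolase. RNA was measured in 6 established human acute myeloid leukaemia (AML) cell lines on 17 Illumina bead arrays, 1 per line and condition. The series' design text classes MV-4-11, TF-1 and MOLM-14 as sensitive to D9 and KG-1a, THP-1 and Mono-Mac-1 as resistant. Each line was left untreated or given D9 at 1 µM for 48 h, and all but MV-4-11 were also given 5 µM. TF-1 alone was grown with interleukin-3. Each line derives from a single leukaemia, no line had a repeat array of the same condition, and the few arrays limit the precision.

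CDKN2A is a tumour suppressor gene with an unusual structure, since separate first exons are spliced to a shared second exon that is read in different frames. One product, p16INK4a, blocks the kinases CDK4 and CDK6 and so keeps the retinoblastoma protein active. The other, p14ARF, blocks MDM2 and so stabilises p53. CDKN2B encodes p15INK4b, a further inhibitor of CDK4 and CDK6. MTAP, next to CDKN2A, encodes the enzyme that recovers adenine and methionine from methylthioadenosine, a by-product of polyamine synthesis, and it is often lost together with CDKN2A when 9p21 is deleted in tumours. KLHL9 encodes a substrate adaptor of a CUL3 ubiquitin ligase, HACD4 a member of the family of dehydratases that elongate fatty acids, and FOCAD the protein focadhesin. A low array level says that little RNA was found, and a deleted gene and an intact but silent gene cannot be told apart by it.

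RefSeq start sites on GRCh38.p14 were matched for all 6 genes, 7 sites in all because CDKN2A has 2. The 250 bases before a start are shown for both starts of CDKN2A, which serve transcripts to which separate probes are annotated, and for MTAP and KLHL9, both of which were dim in THP-1 alone. Each runs 5′ to 3′ on the strand of its gene, and capitals mark CG, the dinucleotide at which DNA is methylated in human cells.
CDKN2A, start of the p16INK4a transcript, chr9:21974858-21975107, minus strand: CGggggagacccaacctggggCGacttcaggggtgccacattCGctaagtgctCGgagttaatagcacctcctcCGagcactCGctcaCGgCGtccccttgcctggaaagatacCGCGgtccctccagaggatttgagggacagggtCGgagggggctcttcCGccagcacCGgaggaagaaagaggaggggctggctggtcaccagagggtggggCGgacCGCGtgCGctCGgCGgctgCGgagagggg
CDKN2A, start of the p14ARF transcript, chr9:21995325-21995574, minus strand: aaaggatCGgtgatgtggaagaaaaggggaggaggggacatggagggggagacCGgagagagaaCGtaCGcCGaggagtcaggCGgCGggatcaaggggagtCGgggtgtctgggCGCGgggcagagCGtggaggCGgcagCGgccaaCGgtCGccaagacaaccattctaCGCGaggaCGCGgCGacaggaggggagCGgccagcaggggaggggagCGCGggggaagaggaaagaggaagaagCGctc
MTAP, chr9:21802386-21802635, plus strand: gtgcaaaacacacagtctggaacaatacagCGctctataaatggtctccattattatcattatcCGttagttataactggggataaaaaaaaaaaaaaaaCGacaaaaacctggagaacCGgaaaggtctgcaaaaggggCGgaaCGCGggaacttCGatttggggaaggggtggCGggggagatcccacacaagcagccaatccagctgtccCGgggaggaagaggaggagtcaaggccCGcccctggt
KLHL9, chr9:21335405-21335654, minus strand: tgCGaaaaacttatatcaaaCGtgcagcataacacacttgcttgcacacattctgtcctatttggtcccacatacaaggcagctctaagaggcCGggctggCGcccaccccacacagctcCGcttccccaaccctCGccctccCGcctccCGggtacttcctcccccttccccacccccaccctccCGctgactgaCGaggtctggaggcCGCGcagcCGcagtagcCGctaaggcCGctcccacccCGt
The p16INK4a start held 20 CG and the p14ARF start 24, against 11 before MTAP and 16 before KLHL9. Of 35116 promoter windows of this length, searched for CG, which reads the same on both strands, 32.4% held at least 20 and 23.7% at least 24. The counts are a description of the reference sequence, and methylation was not measured on these arrays.

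Values are log2 levels after background correction and quantile normalization. No detection calls came with the arrays, so the background level of an array was set at the 95th percentile of its 457 probes for olfactory receptor genes, which are largely silent outside the nose. That level lay between 6.29 and 6.38, and between 39.1% and 44.9% of all probes were above it. The lowest raw signal was 30.2 to 35.4 on the 6 arrays of TF-1 and THP-1 and 0 to 14.4 on the other 11, so that a sensitive and a resistant line share the higher floor. No chip or date is named, so no batch could be tested. The myeloid factor SPI1 was above background in all 6 untreated lines. Of the other myeloid markers of a list of 7, LYZ, CSF1R and CD14 were not above background in KG-1a, MPO was not in TF-1, CD34 was not in THP-1 or Mono-Mac-1, and the PTPRC probe was above it in TF-1 and Mono-Mac-1 only. Of 3 erythroid markers, the fetal globin gene HBG1 and the factor KLF1 were above background only in TF-1, at 14.59 and 8.67, and the receptor gene EPOR was above it in all 6 lines (6.66 to 8.17). CD3D was at 12.73 in KG-1a, where CD3E was not above background, the B cell marker MS4A1 was above it in 0 lines, and of the stromal markers COL1A1 was so in MOLM-14 alone and COL1A2 in 0 lines.

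CDKN2A was high in the 3 sensitive lines and low or at background in the 3 resistant lines. The probe annotated to the p16INK4a transcript (ILMN_1717714) had untreated levels of 11.14 in TF-1, 8.85 in MV-4-11 and 9.51 in MOLM-14. It read 5.99 in THP-1, 6.07 in Mono-Mac-1 and 6.95 in KG-1a. The classes did not overlap, and the sensitive lines averaged 9.83 ± 1.18 against 6.33 ± 0.53 in the resistant lines (SD, n = 3 each). In raw intensity the untreated arrays gave 2300.0 in TF-1, 444.9 in MV-4-11 and 661.2 in MOLM-14, against 55.3 in THP-1, 49.3 in Mono-Mac-1 and 115.6 in KG-1a. KG-1a stood just above background on each of its 3 arrays, higher than 99.3% of the olfactory receptor probes on the untreated one. THP-1 and Mono-Mac-1 were not above background on any of their 6 arrays. Set against the mean of the 4 lines above background (9.11 ± 1.73, SD), the level was at least 6.67-fold lower in THP-1 and at least 6.93-fold lower in Mono-Mac-1. These bounds take the background level in place of the dim value, and the offset added to each signal shrinks them.

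The probe annotated to the p14ARF transcript (ILMN_1744295) split the lines more sharply. It read 8.55 in untreated TF-1, 8.15 in MV-4-11 and 8.11 in MOLM-14, against 5.97 in THP-1, 5.95 in Mono-Mac-1 and 5.999 in KG-1a. The sensitive lines lay close together, and the resistant lines at the middle or lower part of the olfactory receptor probes, with 35.4% of these below THP-1, 32.4% below Mono-Mac-1 and 44% below KG-1a. The mean of the sensitive lines (8.27 ± 0.24, SD, n = 3) was at least 3.71-fold above THP-1, 3.86-fold above Mono-Mac-1 and 3.8-fold above KG-1a. KG-1a thus had signal on the p16INK4a probe and none above background on the p14ARF probe, on all 3 of its arrays. Over the 17 arrays the probes correlated with r = 0.949, a description in which 2 or 3 arrays share each line. The remaining probe, ILMN_1757255, read between 5.83 and 6.10 on all 17 arrays and was never above background. Which further CDKN2A transcripts each probe can bind was not tested.

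**Figure D1:**
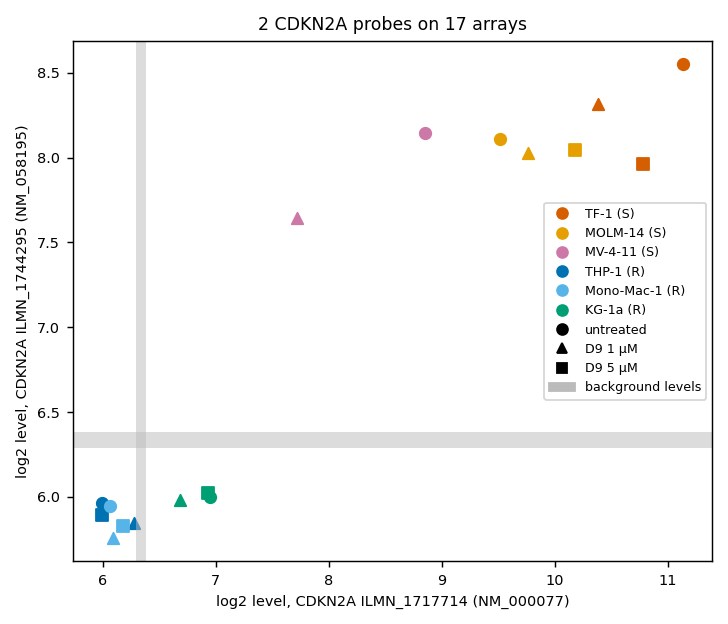
Log2 level of the p16INK4a probe (x axis) against that of the p14ARF probe (y axis) on 17 arrays, coloured by line with the symbol giving the dose, and the range of background levels in grey. The 8 arrays of the sensitive lines (S) lie at the upper right, the THP-1 and Mono-Mac-1 arrays at background on both axes, and the 3 KG-1a arrays between 6.69 and 6.95 on the x axis and at background on the y axis (R, resistant).

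CDKN2B, the gene next to CDKN2A, was near background everywhere. Its brightest probe, ILMN_2376723, read 7.19 in untreated TF-1, 6.57 in MV-4-11 and 6.54 in MOLM-14, against 6.30 in THP-1, 6.22 in Mono-Mac-1 and 6.12 in KG-1a. Only the sensitive lines were above background, but with other background levels these were TF-1 and MV-4-11 alone, or THP-1 and also Mono-Mac-1 joined. ILMN_1723198 was above background in untreated TF-1 (6.65) and MV-4-11 (6.42), a call that depends on the background level chosen, and ILMN_1670111 was not above it on any of 17 arrays. Across arrays ILMN_2376723 followed the p16INK4a probe with r = 0.925, again with arrays that share lines.

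MTAP and KLHL9 were alike in that THP-1 alone was dim, and in the other lines their levels were ordered differently. The MTAP probe (ILMN_1753639) read 9.35 in untreated TF-1, 8.77 in MV-4-11 and 9.58 in MOLM-14, and 8.76 in Mono-Mac-1 and 8.64 in KG-1a. In THP-1 it read 6.14, with a raw intensity of 62.6, against 419.6 to 692.2 in the others. KLHL9 (ILMN_1664466) read 8.98 in untreated TF-1, 8.33 in MOLM-14, 9.34 in MV-4-11, 8.84 in Mono-Mac-1 and 9.42 in KG-1a. In THP-1 it read 5.85, above only 12.9% of the olfactory receptor probes. Set against the mean of the other 5 lines, MTAP was at least 6.24-fold lower in THP-1 and KLHL9 at least 6.09-fold lower. Among 14211 genes above background in at least 1 untreated line, 200 (1.41%) were likewise above it in the other 5 lines and not in THP-1, so many genes share this pattern. The pair correlated with r = 0.905 over the 17 arrays, of which the 3 THP-1 arrays are the low ones.

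Mono-Mac-1 separated CDKN2A from MTAP and KLHL9. Here both CDKN2A probes were at background, at 6.07 and 5.95, as were all 3 CDKN2B probes, while MTAP and KLHL9 were high, at 8.76 and 8.84. In THP-1 all of CDKN2A, CDKN2B, MTAP and KLHL9 were at background. In KG-1a MTAP and KLHL9 were high and CDKN2A was faint.

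The outer genes HACD4 and FOCAD were above background on all 17 arrays. HACD4 (ILMN_1690114) read 9.86 in untreated TF-1, 10.38 in MV-4-11 and 12.11 in MOLM-14, against 11.33 in THP-1, 10.44 in Mono-Mac-1 and 10.26 in KG-1a. THP-1, at background for KLHL9, thus had the second highest HACD4 level. FOCAD (ILMN_1807177) read 7.78 in untreated TF-1, 7.94 in MV-4-11 and 7.62 in MOLM-14, against 7.12 in THP-1, 7.71 in Mono-Mac-1 and 8.24 in KG-1a. FOCAD was lowest in THP-1, at -0.62 from the median of the 6 lines, and all 3 THP-1 arrays (7.12 to 7.31) lay below every other array, the lowest of which read 7.51. In both genes the classes overlapped.

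**Figure D2:**
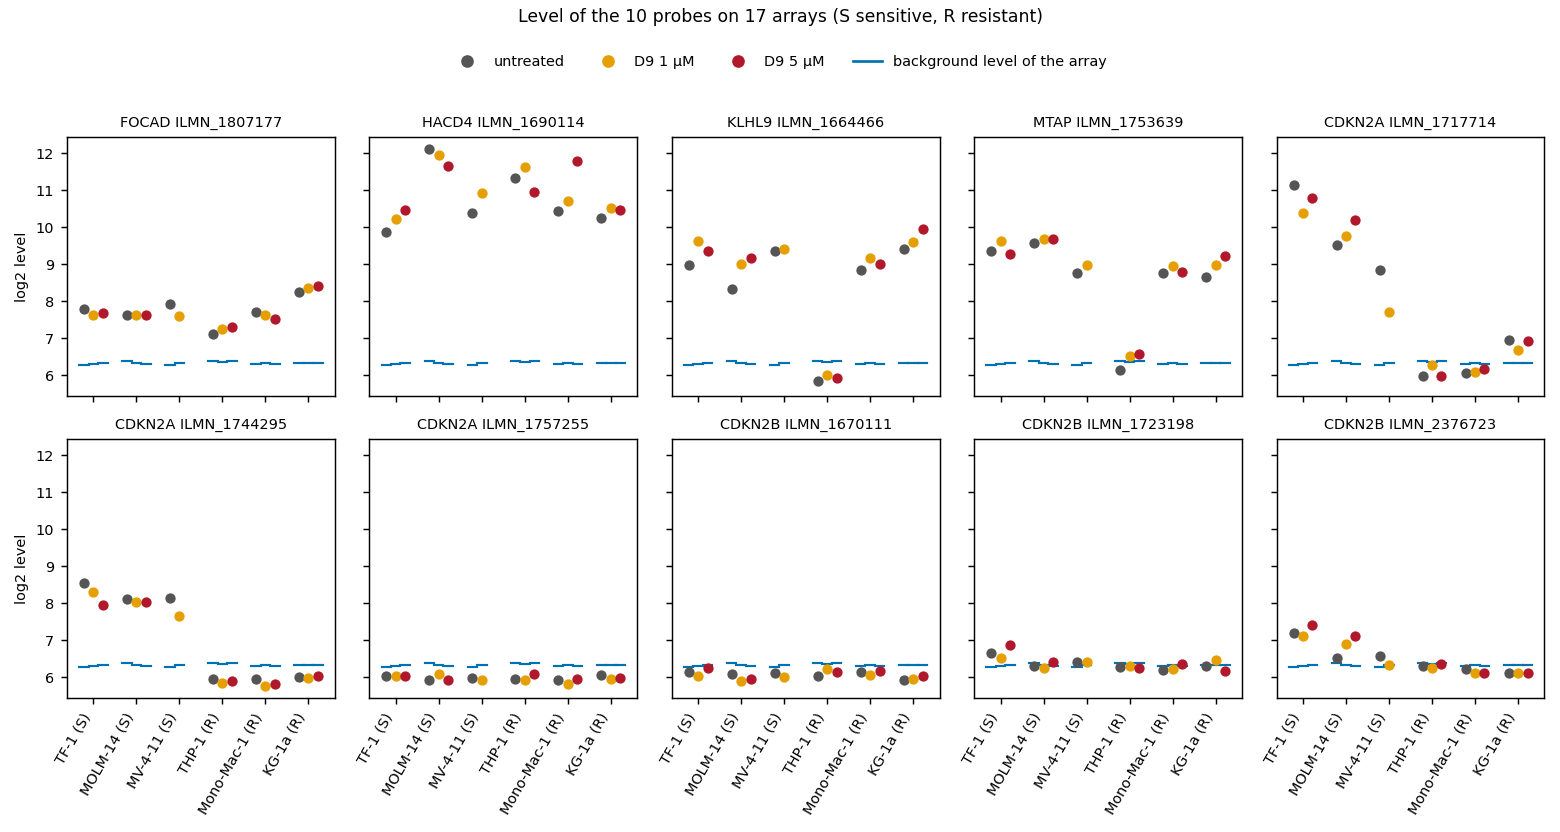
Log2 level of the 10 probes on 17 arrays, by cell line (x axis, 3 sensitive lines marked S, then 3 resistant lines marked R) and dose (colour), with the background level of each array as a blue bar. Both brighter CDKN2A probes are higher in the sensitive than in the resistant lines, THP-1 alone is dim for KLHL9 and MTAP, and HACD4 and FOCAD are above background throughout.

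With no repeat arrays, the only spread within a line is that between its doses. For the p16INK4a probe the levels of a line spanned at most 1.13 (MV-4-11), against 5.15 between the untreated lines. Of 28394 tested probes 0.63% had as wide an untreated range. The share was 2.61% for KLHL9, 2.95% for MTAP, 7.08% for the p14ARF probe, 10.3% for HACD4 and 38.6% for FOCAD. For CDKN2B it was 40.5% (ILMN_2376723) and 70% (ILMN_1723198). The genes were chosen for their levels, so nothing is read from these shares. By the spread between doses, the p16INK4a levels of TF-1 (10.38 to 11.14), MOLM-14 (9.51 to 10.18), MV-4-11 (7.72 to 8.85) and KG-1a (6.69 to 6.95) were in order without overlap, while Mono-Mac-1 and THP-1 overlapped. For MTAP, MOLM-14 (9.58 to 9.68) and TF-1 (9.28 to 9.62) overlapped, as did MV-4-11, Mono-Mac-1 and KG-1a (together 8.64 to 9.24). The 5 lines with KLHL9 formed a chain of overlapping ranges. The untreated range was 3.44 for MTAP and 3.57 for KLHL9, but 2.26 for HACD4 and 1.12 for FOCAD.

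Of the 8 probes that passed the filter on low levels, 5 had untreated levels in the sensitive lines all above those of the resistant lines, namely both CDKN2A probes, both tested CDKN2B probes and MTAP. For MTAP the gap was as narrow as 8.766 in MV-4-11 against 8.755 in Mono-Mac-1. For ILMN_1723198 of CDKN2B it was 6.305 in MOLM-14, itself not above background, against 6.297 in KG-1a. Over all 28394 tested probes 3.13% had a split in this direction, however narrow. Above background in all 3 sensitive lines and in no resistant line were 2 of the 10 probes, the p14ARF probe and ILMN_2376723 of CDKN2B (the count for CDKN2B depending on the background level, as above), against 0.303% of the genes above background anywhere. That share is of genes rather than probes, each taken by its brightest probe. For CDKN2A this is the p16INK4a probe, which was above background in KG-1a, so CDKN2A itself would not count in it. Since the genes were chosen for their levels, these shares are given side by side and nothing is read from them.

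The neighbourhood was then followed gene by gene, in RefSeq order, over 20 genes on each side of CDKN2A that were above background in at least 1 untreated line. By the rule that a neighbour be dim in every line where MTAP was dim and above background in all others, KLHL9 was the single match among the 41 genes apart from MTAP itself. In THP-1 the genes from KLHL9 to ELAVL2 formed an unbroken run of 7 at background, which also holds MTAP, CDKN2A, CDKN2B-AS1, CDKN2B and DMRTA1. Mono-Mac-1 had a run of the same length that began at CDKN2A and went on past ELAVL2 to TUSC1 and LINC03106, and in the other lines no run was longer than 3. Both runs depend on the background level chosen. With lower levels CDKN2B (ILMN_2376723) was above background in THP-1, or in THP-1 and Mono-Mac-1, which would break them. CDKN2B-AS1, the antisense RNA of the locus, lies in both runs and was above background in TF-1 alone (6.35). DMRTA1 and ELAVL2, also in both runs, were above it in KG-1a alone (7.18 and 6.47). The silence of these genes in THP-1 and Mono-Mac-1 was thus shared with most lines. In the Mono-Mac-1 run, LINC03106 was above background in TF-1 alone (6.39), and TUSC1 was not above it in TF-1 either (5.82). How often such runs occur elsewhere in the genome was not tested. On one side the THP-1 run ended at IFNA4, an interferon gene at 6.42 in THP-1 and barely over the background of 6.38. Beyond it, IFNA21 (6.19) and IFNW1 (6.37) were again not above background. Further out, HACD4 at 11.33 and HAUS6 at 8.70 were high. On the other side it ended at TUSC1, which read 7.52 in THP-1. In all, 16 of the 41 genes were not above background in THP-1, 13 in Mono-Mac-1 and 12 in KG-1a. The counts were 4 in TF-1, 10 in MV-4-11 and 12 in MOLM-14. They depend on the background level of each array, with 39.6% of all probes above it in untreated THP-1 and 44.9% in untreated TF-1. IFNW1 was thus above background in TF-1 at 6.34 but not in THP-1 at 6.37. Whether a line's count differs from its share over all genes was not tested.

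**Figure D3:**
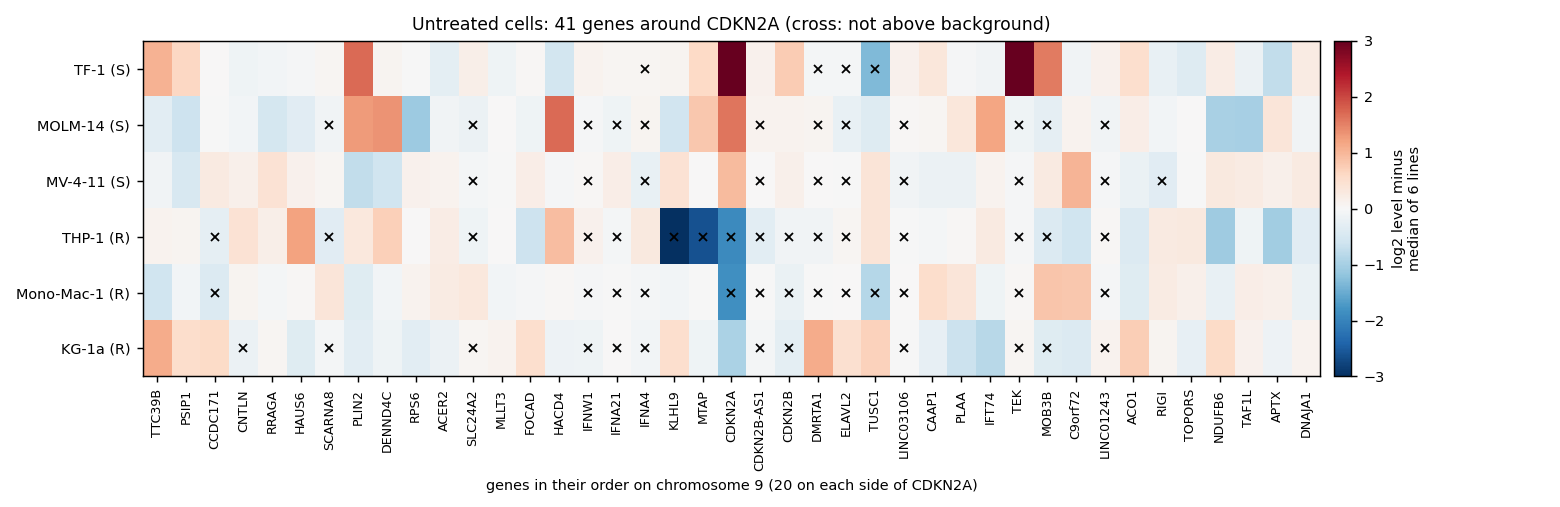
Untreated level of 41 genes in their order on chromosome 9 (x axis), as log2 level minus the median of the 6 lines (colour), by line (rows, sensitive lines S above resistant lines R), with crosses for genes not above background. THP-1 is lowest for KLHL9 and MTAP, THP-1 and Mono-Mac-1 are both at background for CDKN2A, and the interferon genes are near background in every line.

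The effect of D9 was tested with the line as the replicate, as the mean of its treated arrays minus its untreated array, in a limma fit over 28394 probes. MV-4-11 entered with 1 µM alone. None of the 8 tested probes passed an adjusted p under 0.10 (0 of 8), against 5.59% of all tested probes. At an unadjusted p under 0.05 there were 3 of 8 (KLHL9, MTAP and the p14ARF probe), against 19.1% of all. The median effect was 0.04 over the 8 probes and -0.00258 over all tested probes.

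KLHL9 came nearest to a call. Its levels at 0, 1 and 5 µM were 8.98, 9.62 and 9.35 in TF-1, 8.33, 8.999 and 9.16 in MOLM-14, 8.84, 9.18 and 9.01 in Mono-Mac-1, and 9.42, 9.61 and 9.94 in KG-1a. In MV-4-11 it read 9.42 at 1 µM and 9.34 untreated. It was thus higher on all 9 treated arrays of the 5 lines that had the RNA. The doses of a line share 1 untreated array, so these arrays are not independent comparisons. The mean line effect was 0.39 ± 0.25 (SD, n = 5). In THP-1, KLHL9 stayed below background at 5.85, 6.01 and 5.93. In the fit over 6 lines the effect was 0.34 ± 0.09 (SE, adjusted p = 0.101), and without THP-1 it was 0.38 ± 0.11 (SE, adjusted p = 0.151). It passed without MV-4-11 (0.43, adjusted p = 0.0799), and the range over all alternatives was 0.0149 to 1.

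MTAP at 0, 1 and 5 µM read 9.35, 9.62 and 9.28 in TF-1, 9.58, 9.68 and 9.68 in MOLM-14, 8.76, 8.95 and 8.79 in Mono-Mac-1, and 8.64, 8.97 and 9.24 in KG-1a. In MV-4-11 it read 8.97 at 1 µM and 8.77 untreated. KG-1a moved most among these lines, by 0.46, and the treated arrays were above the untreated one in all but TF-1 at 5 µM. In THP-1, MTAP read 6.14, 6.51 and 6.59, with raw intensities of 62.6, 76.9 and 77.3, so that both treated arrays were just above background, each over 98.5% of its olfactory receptor probes. This THP-1 effect of 0.41 was matched in size by 16.2% of tested probes in that line. Over 6 lines the effect was 0.23 ± 0.07 (SE, 6 of 6 lines higher, adjusted p = 0.113), and 0.21 ± 0.07 without THP-1 (adjusted p = 0.218).

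CDKN2A moved in different directions among the lines that had its RNA. The p16INK4a probe at 0, 1 and 5 µM read 11.14, 10.38 and 10.78 in TF-1, 9.51, 9.76 and 10.18 in MOLM-14, and 6.95, 6.69 and 6.93 in KG-1a. In MV-4-11 it read 7.72 at 1 µM and 8.85 untreated, a difference of -1.13, or 0.457-fold, a size reached by 1.54% of tested probes in that line. TF-1 and MV-4-11 were lower with D9 and MOLM-14 was higher at both doses. The p14ARF probe read 8.55, 8.31 and 7.96 in TF-1 and 8.11, 8.03 and 8.05 in MOLM-14, and in MV-4-11 7.65 at 1 µM and 8.15 untreated. It was lower on all 5 treated arrays of the sensitive lines, where the doses of a line share 1 untreated array. The fit over 6 lines gave -0.19 ± 0.18 (SE, adjusted p = 0.642) for the p16INK4a probe and -0.20 ± 0.07 (SE, adjusted p = 0.175) for the p14ARF probe. The p16INK4a value rested on single lines, at -0.41 without MOLM-14 and -0.0119 without MV-4-11. For the 3 sensitive lines of that fit, a contrast added after the data were seen, it gave -0.41 ± 0.25 (adjusted p = 0.569) and -0.33 ± 0.10 (adjusted p = 0.272).

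Where a CDKN2A probe was at background in untreated cells, it was not above background with D9 either. The p16INK4a probe at 0, 1 and 5 µM read 5.99, 6.28 and 5.996 in THP-1 and 6.07, 6.09 and 6.18 in Mono-Mac-1. The p14ARF probe read 5.97, 5.85 and 5.89 in THP-1, 5.95, 5.76 and 5.83 in Mono-Mac-1, and 5.999, 5.98 and 6.02 in KG-1a. All 10 of these treated values lay under the background level of their array, and a change of RNA beneath that level would not be seen.

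For CDKN2B (ILMN_2376723) at 0, 1 and 5 µM the levels were 7.19, 7.12 and 7.42 in TF-1 and 6.54, 6.91 and 7.12 in MOLM-14, and in MV-4-11 6.34 at 1 µM and 6.57 untreated. MOLM-14 moved by 0.48, the same way as its p16INK4a probe (0.46), and MV-4-11 by -0.23. The mean effect was 0.04 ± 0.09 (SE, adjusted p = 0.882), and 0.03 ± 0.05 (adjusted p = 0.81) for ILMN_1723198.

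HACD4 had its widest change in Mono-Mac-1. In the resistant lines at 0, 1 and 5 µM it read 11.33, 11.62 and 10.95 in THP-1, 10.44, 10.71 and 11.79 in Mono-Mac-1, and 10.26, 10.52 and 10.47 in KG-1a. In the sensitive lines it read 9.86, 10.22 and 10.47 in TF-1 and 12.11, 11.94 and 11.65 in MOLM-14, and in MV-4-11 10.92 at 1 µM and 10.38 untreated. It was higher in 4 lines and lower in 2, with an effect of 0.28 ± 0.14 (SE, adjusted p = 0.344), which was 0.17 without Mono-Mac-1 and 0.42 without MOLM-14. The 5 µM array of Mono-Mac-1 had a raw intensity of 3696.7, against 1597.6 untreated. The widest FOCAD effect was -0.34, in MV-4-11, and the fit gave -0.05 ± 0.07 (SE, adjusted p = 0.784).

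**Figure D4:**
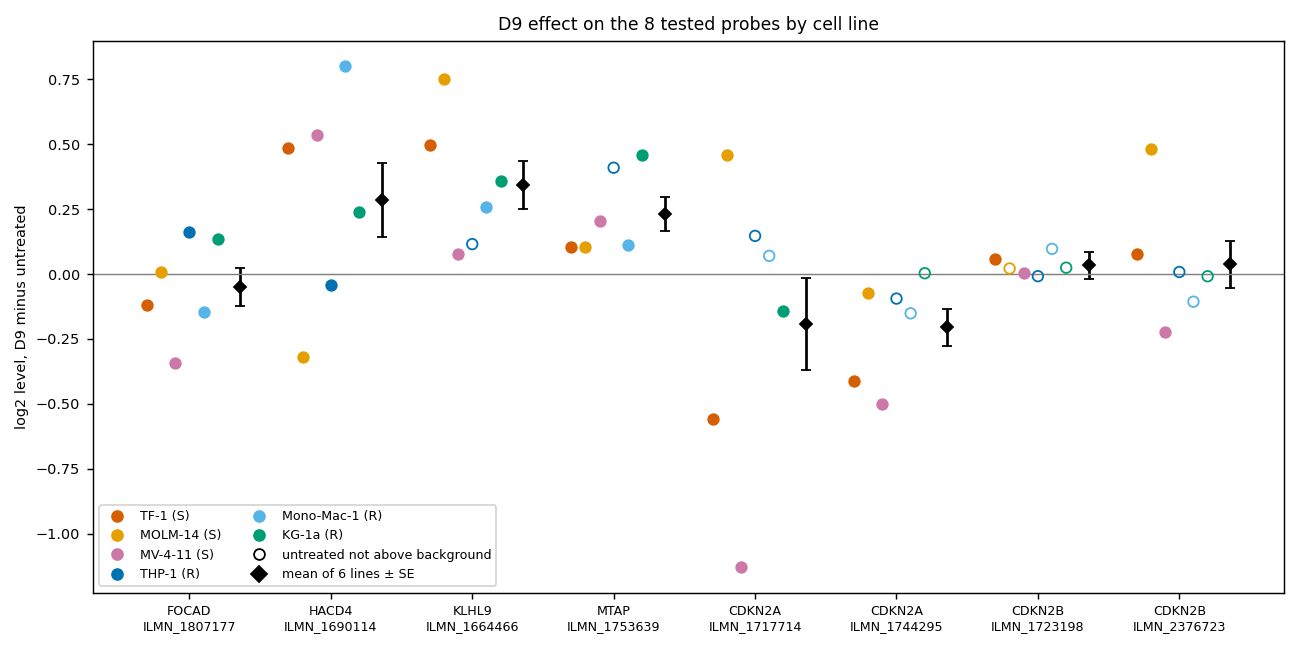
Line effects of D9 (y axis, log2 of treated arrays minus the untreated array) for the 8 tested probes, with 1 point per line, open where the untreated array was not above background, and the fitted mean of 6 lines ± SE as a diamond. KLHL9 and MTAP lie above 0 in 6 of 6 lines, and the p16INK4a probe of CDKN2A runs between -1.13 in MV-4-11 and 0.46 in MOLM-14.

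By size alone, a line effect of at least 1.5-fold was seen for HACD4 in Mono-Mac-1 (1.74-fold higher), KLHL9 in MOLM-14 (1.68-fold higher) and the p16INK4a probe in MV-4-11 (lower), and for 0 of 8 probes in TF-1, THP-1 and KG-1a. The shares of all tested probes past that size were 4.15% in TF-1, 3.92% in MOLM-14, 9.45% in MV-4-11, 7.4% in THP-1, 7.15% in Mono-Mac-1 and 1.94% in KG-1a. With 1 array per line and dose, these counts have no replicate check.

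The classes were compared by the difference of their mean D9 effects, sensitive minus resistant. By limma 0 of 8 probes passed, against 0% of all 28394, and at an unadjusted p under 0.05 also 0 of 8, against 2.66%. The widest difference was that of the p16INK4a probe, -0.43 ± 0.35 (SE, adjusted p = 0.999), with class means of -0.41 in the sensitive and 0.03 in the resistant lines. In THP-1 and Mono-Mac-1 this probe was at background on every array, so a fall with D9 could not have been seen there. The p14ARF probe was at background in all resistant lines. For CDKN2A the contrast thus set lines with the RNA against lines with little or none. The step from 1 to 5 µM was tested in the 5 lines with both doses. Again 0 of 8 probes passed, against 0.546% of all, and 0 of 8 had an unadjusted p under 0.05, against 11.4%. The p16INK4a probe was higher at 5 than at 1 µM in 4 of 5 lines (0.17 ± 0.09, SE, adjusted p = 0.532), and ILMN_2376723 of CDKN2B in 5 of 5 (0.13 ± 0.07, SE, adjusted p = 0.538).

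The genes on which the products of this locus act were measured on the same arrays. Of 17 listed genes of the INK4 and ARF pathway, 15 were measured, 12 of these were above background in all 6 untreated lines, and 0 passed the test of the D9 effect by limma in either direction, against 5.59% of all tested probes. Their median effect was -0.15, against -0.00258 over all tested probes. CDK4, a target of p16INK4a, ran from 10.66 to 11.33 across untreated lines and read -0.29 ± 0.09 (SE, lower in 6 of 6 lines, adjusted p = 0.142). CCNE1, a partner of CDK2, read -0.43 ± 0.12 (SE, lower in 6 of 6 lines, adjusted p = 0.104). MDM2, the target of p14ARF, was above background in 3 of 6 lines, THP-1, Mono-Mac-1 and MV-4-11.

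All 17 listed genes of the route around MTAP, from polyamine synthesis through methionine recovery, were measured, and 16 were above background in all 6 untreated lines. Of these, 1 fell with D9 and 0 rose, a share near the 5.59% of all tested probes that passed, and the median effect was -0.17. The gene that fell was MAT2A, which makes S-adenosylmethionine from methionine, by 0.58 (SE 0.08, adjusted p = 0.028), lower in 6 of 6 lines, with the smallest change in THP-1 (-0.24) and changes of -0.54 to -0.81 in the other 5. THP-1, where MTAP was at background untreated and just above it with D9, had untreated MAT2A of 12.39, within the 12.09 to 12.86 of the other lines. A link between MTAP level and the MAT2A change was not tested. PRMT5, the arginine methyltransferase that methylthioadenosine inhibits, read 9.26 in untreated THP-1 against 9.30 to 9.92 in the others, and its D9 effect was -0.04 ± 0.08 (SE, adjusted p = 0.847).

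The genes most like each member over the 17 arrays were named as a description, with arrays that share lines. Nearest to the p16INK4a probe were ALDH4A1 (r = 0.961), TLCD5 (r = 0.945) and DHRS11 (r = 0.944), and nearest to CDKN2B were OTOF (r = 0.945), CXCL1 (r = 0.941) and S100A13 (r = 0.939). KLHL9 ran with MFNG (r = 0.974), FUNDC1 (r = 0.969) and MRPL20-AS1 (r = 0.96), all of them lowest in THP-1. MTAP ran with MRPL20-AS1 (r = 0.933), ING2 (r = 0.921) and TMSB10 (r = 0.913). HACD4 ran with STRIP2 (r = 0.99), SDHAP1 (r = 0.983) and LINC01567 (r = 0.982), and FOCAD with FAM91A1 (r = 0.967), ATP5MG (r = 0.954) and MTERF3 (r = 0.952). None of these genes lies on chromosome 9, and an r this high was found by choosing the best of all tested genes. The HACD4 matches were the closest of all, and which other transcripts the HACD4 probe can bind was not tested.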

How the data were processed

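Total RNA was hybridised to Illumina HT-12 V4 arrays. The deposited raw table holds probe intensity on a linear scale, which the authors summarised in GenomeStudio (version not given in the sources used here) without normalization between arrays. A deposited table of log2 values, probe-centred by the authors, was an alternative, tested with the probes that passed the main filter. All 17 columns belonged to a sample.

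With R 4.3.3 and limma 3.58.1, raw signals were background-corrected (normexp, offset 50), quantile-normalized and log2-transformed. Probes with a mean level above the 40th percentile (6.16) were tested, 28394 of 47323. A single gene symbol was given for 30113 probes, of which 30074 matched the reference table by gene number. Each line gave 1 value, fitted as 2 class means with 4 residual degrees of freedom, and p-values were Benjamini-Hochberg adjusted over all tested probes (threshold 0.10). P-values measure the spread between cell lines. The fit was checked on simulated data.

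The 6 genes, the gene lists and the tests were chosen with earlier results of these data known. All probes of the 6 genes were named, with the 3 most similar genes each, neighbours that follow MTAP, and called pathway genes, and CDK4, CCNE1, MDM2, PRMT5 and the neighbours at the ends of the run after their values were seen. Alternatives were an offset of 16, median scaling, uncorrected signals, the deposited log2 values, no filter or the 60th percentile, either dose alone, no pairing, every array with the line as a block, a threshold of 0.05, other background levels and each line left out.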

Additional observations from a re-analysis of the deposited data

How the results depend on the processing

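The number of 9p21 probes called for the D9 effect was 0, and it was 1 with an offset of 16, a filter at the 60th percentile or the 5 µM arrays alone (KLHL9, adjusted p = 0.076, 0.0835 and 0.0993), 3 with every array counted and the line as a block (KLHL9, MTAP and the p14ARF probe, adjusted p = 0.0149, 0.0465 and 0.0695), and 0 to 1 with each line left out, the 1 being KLHL9 without MV-4-11. The count over all tested probes moved too. It was 1588 in the main fit, 2167 with an offset of 16, 1981 with the 60th percentile filter and 1415 with the 5 µM arrays. It was 4547 with the line as a block, 0 without pairing and 108 to 1373 with each line left out. With every array counted, arrays of a line stand as replicates, which they are not. No 9p21 probe was called for the class difference or the dose step under any alternative run (0 to 0 with each line left out). For the class difference 0 probes of the whole array were called under any of them, so the result says nothing particular to 9p21. For the dose step 3 to 308 probes of the whole array were called. The effect changed sign for FOCAD with the 5 µM arrays alone (0.00248), for the p16INK4a probe of CDKN2A with the 5 µM arrays alone (0.0941, where MV-4-11 has no array), and for ILMN_2376723 of CDKN2B with the 1 µM arrays alone (-0.0142) and without MOLM-14 (-0.0543, in a range up to 0.122 with other lines left out), and none of these passed the test. The count past 1.5-fold was 1 in THP-1 with an offset of 16 (MTAP, 0.708) and 1 in KG-1a with median scaling (MTAP, 0.589), against 0 each, 2 in MOLM-14 with an offset of 16 (against 1), and 2 in MV-4-11 with median scaling, an offset of 16 or the deposited log2 values, where the p14ARF probe joined (-0.645, -0.586 and -0.612). Over all tested probes these counts rose as well, with an offset of 16 from 2102 to 3618 in THP-1 and from 1112 to 2102 in MOLM-14. In KG-1a they went from 550 to 804 with median scaling. In MV-4-11 they went from 2682 to 3042 with median scaling, 4324 with an offset of 16 and 3408 with the deposited log2 values. Untreated ranges widened for dim probes, to 0.285 and 0.444 for ILMN_1757255, 0.449 and 0.495 for ILMN_1670111 and 0.747 and 0.714 for ILMN_1723198 with an offset of 16 and the deposited log2 values, and to 1.65 for ILMN_2376723 with an offset of 16. Of 60 pairs of probe and untreated line, 34 were above background, and 31 to 41 under other background levels. Both brighter CDKN2A probes, MTAP, KLHL9, HACD4 and FOCAD were above it in the same lines under each, whereas of the CDKN2B probes ILMN_1723198 was above background in 0 to 6 lines and ILMN_2376723 in 2 to 5. The cause of these shifts was not tested, and signal near background limits all CDKN2B values.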
